A study of Mus musculus with 10 samples.

Results

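The part described here is 1594 of 85680 regions of open chromatin in mouse colon organoids. In wild type (WT) a peak was called there before differentiation but not after it. In organoids that lack the aryl hydrocarbon receptor (AHR KO) a peak was called after differentiation. A missing peak means only that the caller's threshold was not passed. These regions were chosen by the peak calls themselves. Overlapping peaks, by 1 bp or more, were joined across the 10 libraries into consensus regions, and a library called a region if one of its peaks lay there. A member was called in both WT WENR libraries, in none of the 3 WT d4 ENR libraries and in both AHR KO d4 ENR libraries. The first 2 conditions alone, which define a region lost in WT, held for 10971 regions, 12.8% of all regions. Both AHR KO libraries of d4 ENR called 1594 of these (14.5%, 95% Wilson interval 13.9% to 15.2%), 1 of them called 2901 (26.4%) and neither called 6476 (59.0%). Regions called in both AHR KO and no WT d4 ENR library, whatever their calls in WENR, numbered 2435, 2.84% of all regions. Intervals of this kind cover counting error only.

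Omni-ATAC-seq, in which a transposase inserts adapters into accessible DNA, was done on live sorted cells of colon organoids, which are epithelial cultures grown from crypts. WENR medium holds Wnt3a-conditioned medium beside EGF, Noggin and R-spondin1, and it also holds a p38 inhibitor, an ALK5 inhibitor and nicotinamide, which ENR medium lacks. The 4 groups were WT in WENR (2 libraries), WT after 4 days in ENR (d4 ENR, 3 libraries), AHR KO in WENR (3 libraries) and AHR KO in d4 ENR (2 libraries). The methods of the study describe organoids from WT mice and from Vil-Cre Ahr fl/fl mice on a C57BL/6 background, in which the villin promoter drives Cre in intestinal epithelium, and for this assay they say AHR knockout only. The age of the mice and which mouse gave which library are not given in the sources used here, so p-values measure the spread between these libraries, which may be technical. In bulk cells, a region open in fewer cells and one less open in each cell cannot be told apart.

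AHR, a transcription factor switched on by small-molecule ligands, binds DNA with ARNT at short GCGTG-containing elements and drives genes of xenobiotic metabolism. Wnt3a keeps crypt cells in a stem and progenitor state, and its withdrawal lets colon organoids differentiate. TEAD factors, with their coactivators YAP and TAZ, and AP-1 factors bind distal elements that are used in regenerating epithelium, whereas CDX2 and HNF4 factors bind those of mature intestinal cells.

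Windows of 300 bp at the strongest peak of 6 members are given here, read from the GRCm38 genome in lower case with matches to a motif in capitals. The first 3 are the members that ranked highest in the AHR KO d4 ENR lists. The others lie in genes of the Hippo pathway, of the TGF-beta pathway and of intestinal identity. Each of these was the strongest member of its gene list that holds a motif match, so its match follows from the choice. The *Amot* and *Smad3* windows are therefore not in the strongest member of the gene. The letters searched were, for TEAD, ACATTCC or GCATTCC, for AP-1, TGACTCA or TGAGTCA, and for CDX2, GCAATAAA, GCCATAAA, GTAATAAA or GTCATAAA, on both strands. For TCF/LEF, the factors that carry Wnt signals to DNA, they were CTTTGAAC, CTTTGAAG, CTTTGATC, CTTTGATG, CTTTGTAC, CTTTGTAG, CTTTGTTC or CTTTGTTG.
Slfn1 region, chr11:83098384-83098683, plus strand: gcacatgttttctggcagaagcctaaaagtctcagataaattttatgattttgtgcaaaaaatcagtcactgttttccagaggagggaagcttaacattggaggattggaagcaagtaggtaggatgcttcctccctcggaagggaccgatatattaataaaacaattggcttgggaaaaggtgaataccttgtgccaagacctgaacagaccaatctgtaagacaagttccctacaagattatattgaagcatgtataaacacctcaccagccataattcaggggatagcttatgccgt
Hmbox1 region, chr14:64872235-64872534, plus strand: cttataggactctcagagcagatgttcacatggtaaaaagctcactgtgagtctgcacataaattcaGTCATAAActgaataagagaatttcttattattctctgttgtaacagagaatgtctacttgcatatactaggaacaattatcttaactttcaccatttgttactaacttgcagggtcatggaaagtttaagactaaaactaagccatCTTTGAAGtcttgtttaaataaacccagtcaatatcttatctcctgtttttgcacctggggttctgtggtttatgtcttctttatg
Sema3d region, chr5:12488462-12488761, plus strand: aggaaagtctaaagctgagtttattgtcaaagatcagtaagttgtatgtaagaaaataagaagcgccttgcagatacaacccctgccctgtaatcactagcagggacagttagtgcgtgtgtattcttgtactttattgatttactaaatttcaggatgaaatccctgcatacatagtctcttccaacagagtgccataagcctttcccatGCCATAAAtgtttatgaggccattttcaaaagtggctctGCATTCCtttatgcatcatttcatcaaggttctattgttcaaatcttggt
Amot region, chrX:145457508-145457807, plus strand: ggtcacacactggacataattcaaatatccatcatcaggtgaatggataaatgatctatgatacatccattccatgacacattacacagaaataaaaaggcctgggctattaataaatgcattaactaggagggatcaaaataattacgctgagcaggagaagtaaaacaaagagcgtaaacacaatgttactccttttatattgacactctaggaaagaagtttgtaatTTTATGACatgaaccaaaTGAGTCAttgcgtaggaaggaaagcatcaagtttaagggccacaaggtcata
Smad3 region, chr9:63698830-63699129, plus strand: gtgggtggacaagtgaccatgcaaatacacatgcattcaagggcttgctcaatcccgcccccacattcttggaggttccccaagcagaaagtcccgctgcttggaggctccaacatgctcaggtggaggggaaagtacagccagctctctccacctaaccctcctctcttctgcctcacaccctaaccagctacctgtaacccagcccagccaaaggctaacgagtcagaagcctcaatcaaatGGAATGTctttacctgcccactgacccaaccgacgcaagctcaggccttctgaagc
Ehf region, chr2:103271626-103271925, plus strand: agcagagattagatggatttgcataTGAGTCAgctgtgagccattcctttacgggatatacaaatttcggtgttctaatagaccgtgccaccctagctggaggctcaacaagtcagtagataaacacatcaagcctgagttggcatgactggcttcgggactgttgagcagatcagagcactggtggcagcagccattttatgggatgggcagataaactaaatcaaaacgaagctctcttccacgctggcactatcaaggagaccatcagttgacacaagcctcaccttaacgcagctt

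The window near *Slfn1*, in intergenic DNA, holds none of these letters. The intronic *Hmbox1* window holds a CDX2 match and a TCF/LEF match, and the intronic *Sema3d* window holds a CDX2 match and a TEAD match. The *Amot* window, in an intron, holds an AP-1 and a CDX2 match, the intronic *Smad3* window a TEAD match and the intronic *Ehf* window an AP-1 match. A match is a run of letters and not an occupied site. Any of the 7 motifs searched in all was found in 47.0% of the members. It was found in 51.5% of the regions lost in WT that neither AHR KO d4 ENR library called, and in 42.5% of all regions.

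The members were weak peaks in d4 ENR. In WENR, their median fold enrichment over the local background of the library was 3.37 and 3.64 for WT and 3.80, 3.72 and 3.69 for AHR KO. In AHR KO d4 ENR it was 2.85 and 3.06. The medians of both AHR KO d4 ENR libraries therefore lay below those of all 5 WENR libraries. The length covered by peaks had a median of 672 and 710 bp in WT WENR, 711, 729 and 800 bp in AHR KO WENR, and 426 bp in each AHR KO d4 ENR library. A within-list percentile, which is 0 for the least and 100 for the most significant peak of a library, had a median of 28.3 and 32.9 in WT WENR, 34.1, 34.7 and 37.6 in AHR KO WENR, and 14.6 and 17.8 in AHR KO d4 ENR. At the median, the members thus ranked below the middle of every list that called them. By the lower of their percentiles in the AHR KO d4 ENR libraries, which is used as the strength of a member below, the median was 10.7, the highest was 62.2 and 5 members reached 50 or more.

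**Figure D1:**
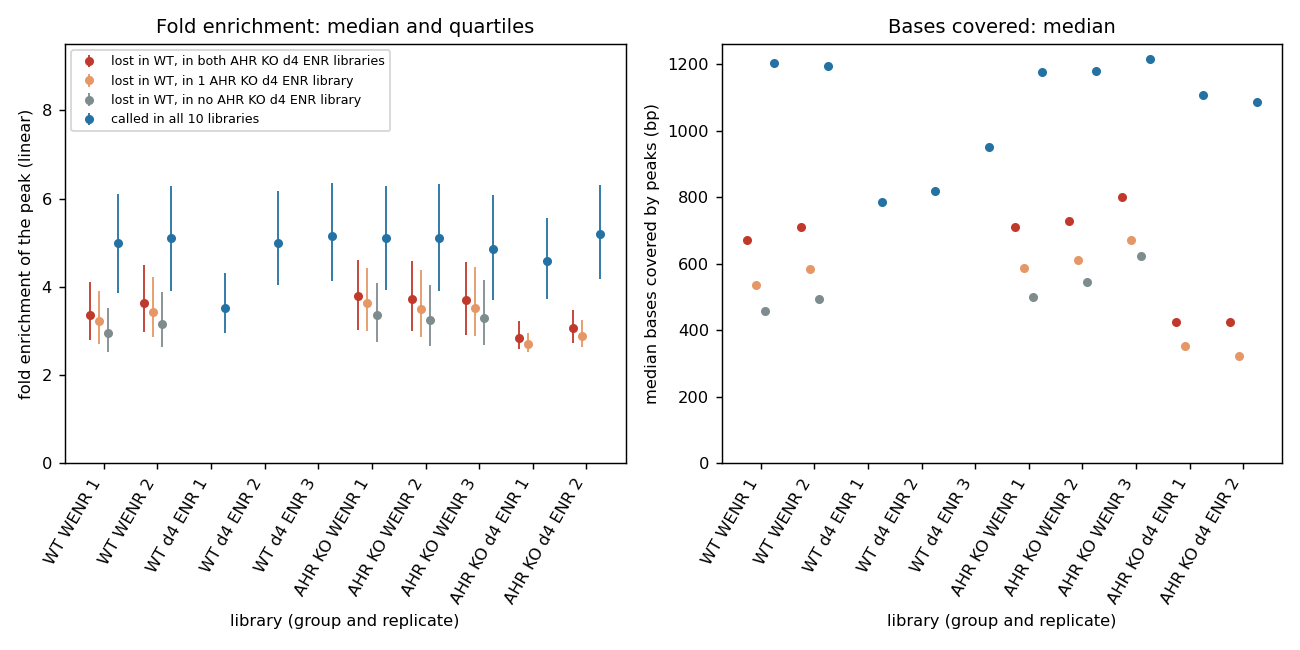
Median fold enrichment with quartiles (left, linear scale) and median bases covered by peaks (right, bp) in each of the 10 libraries, for the members (red), the regions lost in WT that were called in 1 or in no AHR KO d4 ENR library, and the regions called in all 10 libraries, with medians over called regions only. In AHR KO d4 ENR the members lie at 2.85 and 3.06, below their own values in every WENR library, and below the regions called in all 10 libraries everywhere.

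The change of medium was also described within AHR KO, where the rule used the calls in d4 ENR but not those in WENR. Over the 1441 members called in all 5 AHR KO libraries, the bases covered by peaks had a median of 779 bp in WENR and 453 bp in d4 ENR, a median log2 ratio of d4 ENR to WENR of −0.71, and 89.2% of these members had a lower value in d4 ENR. Fold enrichment had medians of 3.80 and 3.00, a median log2 ratio of −0.31, and was lower in d4 ENR at 81.1% of them. At the 28205 regions called in all 10 libraries the same log2 ratios were −0.09 and 0.01. Pileup, the number of overlapping fragments, which is not scaled for depth, had a log2 ratio of −1.05 at the members and −1.14 at the regions called in all 10 libraries. Kept therefore means still called in AHR KO d4 ENR, with a peak that was narrower and less enriched than in WENR at most members.

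The same AHR KO WENR libraries called 95.7%, 95.5% and 94.7% of the members. They called 88.0%, 86.3% and 88.0% of the 9377 other regions lost in WT. The members were the more often called in 3 of 3 libraries, by 7.89 ± 1.29 percentage points (SD, n = 3; exact sign-flip permutation test over libraries, 2-sided, p = 0.25, which is the smallest p that 3 libraries allow). All 3 AHR KO WENR libraries called 1441 members (90.4%, Wilson interval 88.9% to 91.8%), against 65.1% of all consensus regions and 76.3% of the other regions lost in WT. A further 93 members were called in 2 of these libraries, 48 in 1 and 12 in none. Without WT WENR replicate 1 or replicate 2 in the rule, the difference was 16.1 and 14.9 points. In WENR the members also had higher fold enrichment than the 9377 other regions lost in WT. Medians of those 9377 were 3.04 and 3.26 in WT WENR and 3.45, 3.32 and 3.38 in AHR KO WENR. At the 6476 regions called in neither AHR KO d4 ENR library the medians were 2.96 and 3.16 in WT WENR and 3.37, 3.25 and 3.30 in AHR KO WENR. The part of this starting level in the calls of d4 ENR was not tested.

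**Figure D2:**
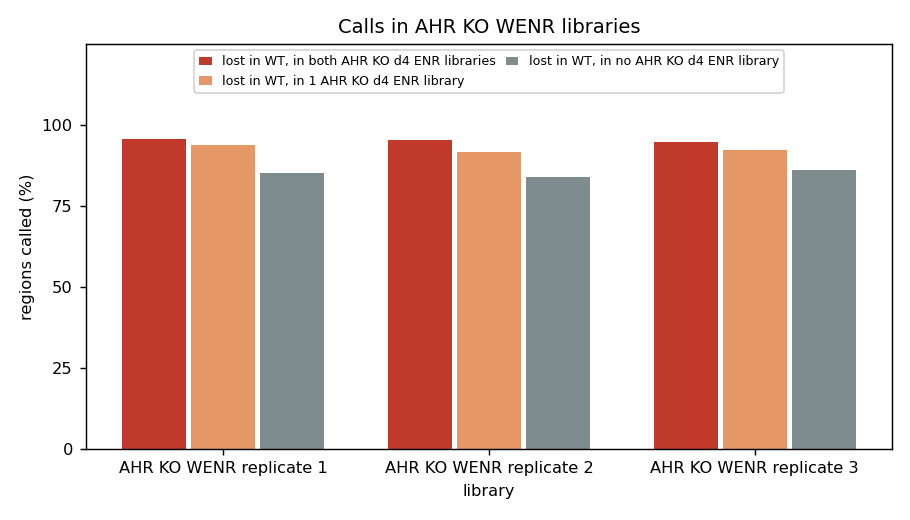
Share of regions called (%) in each of the 3 AHR KO WENR libraries for regions lost in WT, split by whether both, 1 or none of the AHR KO d4 ENR libraries called them. The members stand at 94.7% to 95.7% and the regions called in no AHR KO d4 ENR library at 83.8% to 86.0%.

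The libraries of d4 ENR differed from each other in ways that moved with the genotype. They held 30354729 to 36307860 fragments, against 41686181 to 49126792 in WENR. The share of fragment coverage that lay in peaks was 14.1%, 24.4% and 30.9% in WT and 33.8% and 44.2% in AHR KO, and WT fragments were on average 200, 156 and 172 bp long, those of AHR KO 221 and 202 bp. The part of these differences in the choice of the members was not tested. Promoters of 13 of 13 epithelial marker genes were called in all 10 libraries. Of 19 markers of mesenchymal, endothelial and immune cells, 2 to 6 had a promoter peak in a library. *Col1a1* and *Pdgfra* had one in all 10 libraries, *Cd68* in 9, and *Pdgfrb*, *Acta2* and *Kdr* in all 5 WENR and no d4 ENR library, so that these last moved with the medium in both genotypes. The other 13, among them *Col3a1*, *Pecam1* and *Ptprc*, had none in any library. Their part in the results was not tested. Over *Ahr* itself (chromosome 12, 35497974 to 35535038, minus strand) no member was found, and peak lists cannot show the deletion.

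The d4 ENR libraries were then left out of the choice one at a time, and the regions chosen by the others were looked up in the library left out. Regions lost in WT and called in the other AHR KO d4 ENR library were called at 41.1% in AHR KO replicate 1 (1594 of 3883) and at 72.3% in AHR KO replicate 2 (1594 of 2206). Regions of both WT WENR and both AHR KO d4 ENR libraries that the other WT d4 ENR libraries lacked were called at 7.54% in WT replicate 1 (130 of 1724), at 26.4% in WT replicate 2 (572 of 2166) and at 61.5% in WT replicate 3 (2550 of 4144). WT replicate 3, which had the longest WT list in d4 ENR, thus lay between the AHR KO libraries. The means were 56.7% ± 22.1 (SD, n = 2) in AHR KO and 31.8% ± 27.4 (SD, n = 3) in WT, with overlapping values. The regions looked up differ from library to library and were chosen by 1 call and 3 missing calls for AHR KO but by 2 calls and 2 missing calls for WT, so these shares are a description without a test. Without WT replicate 3 the number of members was 4144 and without AHR KO replicate 1 it was 3886, which are the libraries of d4 ENR whose removal changed the number by more than 1.5 times.

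With every list shortened to its 33433 most significant peaks, the length of the shortest list, 2881 regions were lost in WT and 333 of them (11.6%) had a peak in each AHR KO d4 ENR library. Only 20 of these 333 overlapped one of the 1594 members, which is 6.01% of the former and 1.25% of the latter. The share of lost regions was thus lower than the 14.5% with the full lists, and the regions were largely others. Descriptions of single members that follow hold for the full lists. At equal length, the left-out WT libraries called 54.4%, 36.9% and 42.8% and the left-out AHR KO libraries 55.6% and 51.3%, and the genotypes again overlapped. The opposite pattern, regions called in all 3 AHR KO WENR, in no AHR KO d4 ENR and in all 3 WT d4 ENR libraries, held for 15 regions of the 8129 lost in AHR KO, and at equal length for 58 of 2889. It asks for a call in 3 WENR and 3 d4 ENR libraries where the rule for the members asks for 2 and 2. Missing calls are asked of 2 d4 ENR libraries in place of 3. Its d4 ENR calls also fall in the WT libraries, whose share of coverage in peaks was the lowest (14.1% to 30.9%). These counts are therefore not like for like with those of the members.

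**Figure D3:**
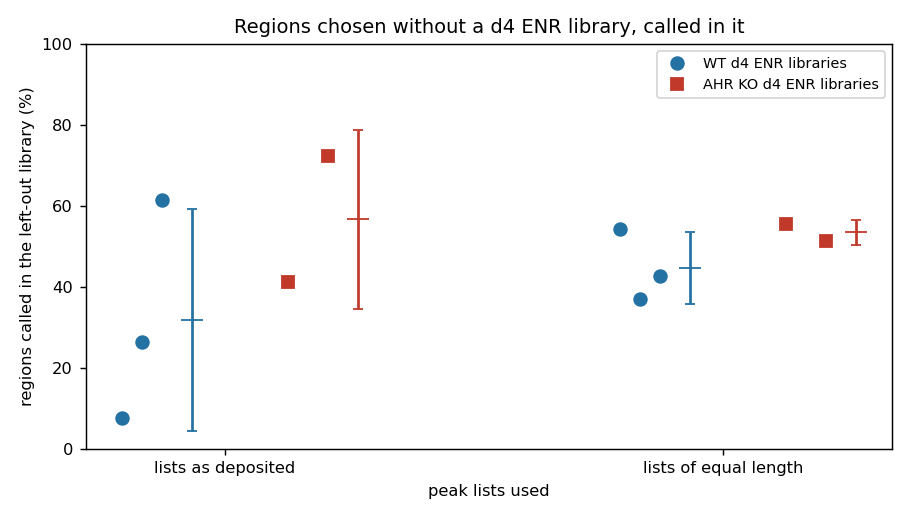
Share of the regions chosen without a d4 ENR library that this library called (%), for 3 WT and 2 AHR KO libraries, with points for libraries and bars for the mean ± SD. The WT points run from 7.54% to 61.5% and the AHR KO points from 41.1% to 72.3% with the lists as deposited, and the genotypes overlap with both kinds of list.

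At the edge of the rule, the members with the lowest significance in an AHR KO d4 ENR library were chr8:120075185-120076226, with −log10 q values of 1.17 and 1.02 in replicates 1 and 2, chr7:19164113-19166342, with 1.46 and 1.06, and chr15:82138681-82140773, with 1.06 and 2.87. Just outside it lay 3252 regions that met all other conditions but had a peak in exactly 1 WT d4 ENR library. That library was replicate 1 for 130, replicate 2 for 572 and replicate 3 for 2550 of them, with median −log10 q values of 1.48, 2.29 and 2.96. For the members the medians in AHR KO d4 ENR were 2.80 and 3.33.

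The members lay mostly away from gene starts. By their midpoint, 761 (47.7%) were intronic, 602 (37.8%) intergenic, 145 (9.10%) in promoters (the 1 kb before a transcription start and the 100 bp after it) and 86 (5.40%) in exons. Intronic and intergenic DNA together held 85.5% of the members (Wilson interval 83.7% to 87.2%), 85.1% of the regions called in neither AHR KO d4 ENR library, 60.5% of those called in all 10 libraries and 77.5% of all regions. In this the members were like the other regions lost in WT. The median distance to the nearest start of a protein-coding gene was 28880 bp, against 31256 bp for the regions called in neither AHR KO d4 ENR library and 10828 bp for those called in all 10. The median width of a member was 962 bp, and together they spanned 1.82 Mb. A region called in a WT d4 ENR library was within 10 kb of 59.0% of the members, at a median gap of 7604 bp. Members seldom lay side by side: 80 of them (5.02%) were within 10 kb of another member, as 40 pairs. They made up 1.51% to 2.26% of the regions of each autosome and 2.17% of those of the X chromosome.

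The strongest member was an intergenic region on chromosome 11 (83097888 to 83099181), 18315 bp from the start of *Slfn1*, a member of the Schlafen family. Its fold enrichment was 5.65 and 6.09 in WT WENR, 7.51, 5.30 and 5.99 in AHR KO WENR and 6.46 and 6.10 in AHR KO d4 ENR, with no peak in WT d4 ENR. Unlike the typical member, this region was as enriched in AHR KO d4 ENR as in WENR. Strength was ranked by significance in AHR KO d4 ENR, so high values there at the named members follow in part from the choice. The next was in an intron of *Hmbox1*, a homeobox gene, on chromosome 14 (64872062 to 64873435), with 5.20 and 6.37 in WT WENR, 5.57, 5.42 and 4.86 in AHR KO WENR and 5.52 and 5.72 in AHR KO d4 ENR. The third was in an intron of *Sema3d*, which encodes a secreted semaphorin, on chromosome 5 (12488379 to 12488910), with 3.39 and 5.37 in WT WENR, 3.34, 4.54 and 3.54 in AHR KO WENR and 5.80 and 5.75 in AHR KO d4 ENR. At *Sema3d* both AHR KO d4 ENR fold enrichments lay above all 5 WENR values. Its −log10 q values in AHR KO d4 ENR, 14.9 and 13.2, lay within the WENR range of 5.03 to 17.5.

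An intergenic region on chromosome 4 (122348399 to 122349153), nearest to *9530002B09Rik*, was lower in AHR KO d4 ENR than in WENR, as most members were. It had fold enrichments of 9.13 and 10.8 in WT WENR, 11.6, 11.4 and 9.20 in AHR KO WENR and 5.16 and 5.12 in AHR KO d4 ENR. Others among the 12 strongest members were nearest to the starts of *Tbc1d22a*, *Vmn1r215*, *Pfn2*, *Itfg2*, *Arl14ep*, *Tenm4* and *Ccdc25*, and in AHR KO d4 ENR their fold enrichment was 3.34 to 5.19. Genes with several members were *Hmbox1* (3 of 15 regions), *Chn2*, a Rac GTPase-activating protein (3 of 34), *Med13l*, a Mediator kinase module subunit (3 of 27), *Oxr1* (3 of 32) and *Rassf8* (3 of 7). *Gm20388* held 5 of its 347 regions, but its gene model spans 4435 kb and other genes.

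In promoters of protein-coding genes there were 111 members. The strongest was at *Msln*, which encodes the surface protein mesothelin (chromosome 17, 25753767 to 25754712). Its fold enrichment was 2.50 and 2.23 in WT WENR, 2.68, 2.51 and 2.40 in AHR KO WENR and 3.47 and 3.26 in AHR KO d4 ENR. Both AHR KO d4 ENR fold enrichments thus exceeded all WENR values. Its −log10 q went the other way, at 8.10 and 7.35 in AHR KO d4 ENR against 15.5 to 35.9 in the WENR libraries. The *Msln* region was followed by regions at *Arhgef1*, *Adgrg1*, *Nae1*, *Ppp1r42*, *Pla1a*, *Sec31a*, *Gtf2ird1*, *Prox1* and *Uggt2*. Promoters were taken at every annotated transcript start, so some of these regions lay far from the start of the gene. The distance was 5892 bp at *Nae1*, 20593 bp at *Adgrg1* and 41916 bp at *Sec31a*. Those at *Msln*, *Pla1a*, *Prox1* and *Uggt2* lay within 1 kb of it. *Uggt2*, which senses misfolded glycoproteins in the endoplasmic reticulum, had 5.29 and 5.47 in WT WENR, 6.95, 6.96 and 7.11 in AHR KO WENR and 3.81 and 3.50 in AHR KO d4 ENR. The *Nae1* promoter region, at a subunit of the NEDD8-activating enzyme, had 3.10 and 3.81 in WT WENR, no peak in any AHR KO WENR library, and 4.18 and 3.79 in AHR KO d4 ENR. It is one of the 12 members that no AHR KO WENR library called.

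Genes were assigned the regions within their body or 5 kb on either side. Of 17240 protein-coding genes with a region, 1020 (5.92%) had a member. Of the 339 such genes in the 17 lists examined, 45 (13.3%) had a member. The listed genes also held more regions lost in WT, and of the 306 assigned to them 53 (17.3%) were members, against 1010 of 7068 (14.3%) over all protein-coding genes. Counted per lost region, the listed genes were thus close to the background. The 5.92% of genes and the 14.3% of lost regions are the background for each list below. Each list held only 3 to 49 lost regions, so a high share rests on few regions as a low one does. Gene length differed between lists, with a median of 22.2 kb over all protein-coding genes, and its part was not tested. The lists of adhesion, Hippo and motility genes had long genes (80.8, 76.5 and 64.2 kb) and members at 27.6%, 26.3% and 28.0% of their genes. The fetal-like and EGF receptor lists had short genes (13.3 and 17.1 kb) and members at 5 of 20 and 3 of 20 genes, and the goblet list, at 26.7 kb, had none.

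**Figure D4:**
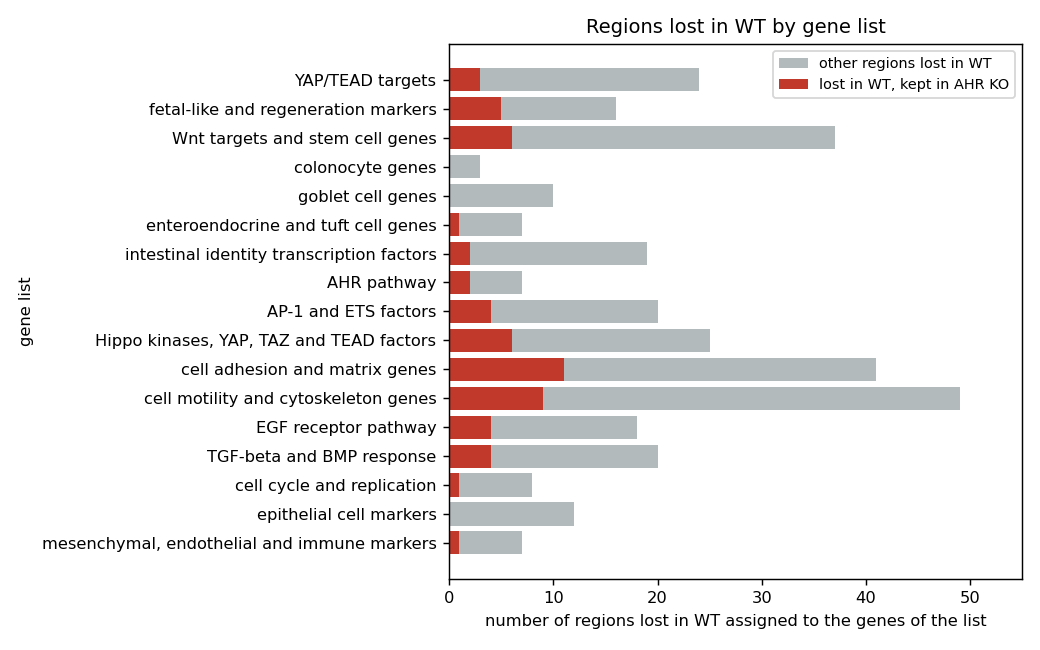
Number of regions lost in WT that were assigned to the genes of each of the 17 lists, with the members in red (labelled kept in AHR KO) and the other regions lost in WT in grey. The members run from 0 of 3 for colonocyte genes to 11 of 41 for cell adhesion and matrix genes, beside 14.3% over all protein-coding genes.

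Among cell adhesion and matrix genes, 8 of 29 had a member, and 11 of their 41 lost regions (26.8%) were members. These genes were *Itgav*, *Itgb6* and *Itgb8*, which encode integrin subunits, *Lamc1*, *Col4a1* and *Col4a2* of the basement membrane, the matrix protein gene *Tnc*, and *Fermt1*, which encodes the integrin activator kindlin-1. The strongest, in an intron of *Itgb8* (chromosome 12, 119230114 to 119231079), had fold enrichments of 3.61 and 4.30 in WT WENR, 3.69, 3.94 and 3.22 in AHR KO WENR and 3.10 and 3.69 in AHR KO d4 ENR. A region in *Lamc1* (chromosome 1, 153273882 to 153275288) had 2.95 and 2.96, then 2.56, 2.50 and 2.52, then 3.02 and 2.97 in the same order. The AHR KO d4 ENR fold enrichments were slightly above all WENR values. Its −log10 q values in AHR KO d4 ENR, 4.11 and 3.63, were below the 6.39 to 11.3 of the WENR libraries.

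Cell motility and cytoskeleton genes had members at 7 of 25 genes and at 9 of 49 lost regions (18.4%). They were the alpha-actinin genes *Actn1* and *Actn4*, *Msn*, which links actin to the membrane, *Palld*, *Pdlim5*, *Vcl* of focal adhesions and *Rock1*, which encodes a kinase that drives actomyosin contraction. The *Msn* region, intronic on chromosome X (96107143 to 96108207), was at percentile 40.9 or higher in both AHR KO d4 ENR lists. Its fold enrichment was 5.16 and 4.91 in WT WENR, 5.07, 5.94 and 5.11 in AHR KO WENR and 4.12 and 4.25 in AHR KO d4 ENR, lower than in all WENR libraries. The *Actn1* region (chromosome 12, 80197279 to 80199385) had 3.14 and 3.27, then 3.55, 3.99 and 3.09, then 3.78 and 3.46.

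Of the genes of the Hippo pathway, whose kinases restrain YAP and TAZ, 5 of 19 had a member, and 6 of 25 lost regions (24.0%) were members. They were *Amot*, which encodes a YAP-binding scaffold, *Wwc1*, an upstream activator of the kinases, *Vgll4*, which competes with YAP for TEAD, *Tead4*, and *Wwtr1*, which encodes TAZ. *Amot* held a pair of intronic members, and the stronger (chromosome X, 145484570 to 145485885) had fold enrichments of 4.04 and 3.85 in WT WENR, 3.30, 3.59 and 3.38 in AHR KO WENR and 3.85 and 3.46 in AHR KO d4 ENR. The *Amot* window shown above lies in the weaker member, at percentile 10.9 against 26.1. Of the YAP/TEAD target genes, 3 of 24 had a member (*Amotl1*, *Arhgef17* and *Wwc1*), and 3 of their 24 lost regions (12.5%) were members. The *Arhgef17* region, at a promoter on chromosome 7 (100879439 to 100880206), had 4.16 and 4.10, then 4.16, 3.58 and 2.92, then 3.30 and 3.47. By lost region this share was near the 14.3% of all protein-coding genes, and by gene it was 12.5% against 5.92%. With 20 kb on either side in place of 5 kb, 6 YAP/TEAD target genes had a member.

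Fetal-like and regeneration markers had members at 5 of 20 genes and at 5 of 16 lost regions (31.2%), a share that rests on few regions. Beside *Msln* they were *Anxa1* and *Anxa5*, which encode phospholipid-binding annexins, and *Ereg* and *Areg*, which encode ligands of the EGF receptor. The *Ereg* region (chromosome 5, 91090369 to 91091993) had fold enrichments of 3.61 and 3.75 in WT WENR, 3.67, 3.30 and 3.50 in AHR KO WENR and 3.27 and 3.65 in AHR KO d4 ENR, and peaks covered 304 and 1483 bp of it in the last group, against 1465 to 1625 bp in the WENR libraries. The *Areg* region was among the weakest, at percentile 0.254. *Ereg*, *Areg* and *Lrig1*, a negative regulator of EGF receptors, were the 3 of 20 genes of the EGF receptor pathway with a member. Of the 18 lost regions of that pathway 4 (22.2%) were members, against 14.3% over all protein-coding genes.

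Of the Wnt targets and stem cell genes, 5 of 22 had a member, and 6 of 37 lost regions (16.2%) were members. They were *Axin2* and *Rnf43*, which dampen Wnt signalling, *Ephb2*, which positions cells along the crypt, the hyaluronan receptor gene *Cd44*, and *Lrig1*. The *Axin2* region (chromosome 11, 108933750 to 108934570) had fold enrichments of 3.39 and 3.20 in WT WENR, 2.90, 2.65 and 2.83 in AHR KO WENR and 2.49 and 2.93 in AHR KO d4 ENR. The *Ephb2* region (chromosome 4, 136756058 to 136756593) was weak throughout, with 2.51 and 2.54 in WT WENR, no peak in AHR KO WENR and 2.62 and 2.68 in AHR KO d4 ENR.

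None of 24 colonocyte genes and none of 17 goblet cell genes had a member, with 3 and 10 lost regions. None of the 12 lost regions at the 13 epithelial markers was a member. Each of these lists has few lost regions, so an absence of members cannot be set apart from the 14.3% over all protein-coding genes. Of 18 enteroendocrine and tuft cell genes *Trpm5*, the tuft cell cation channel gene, had a member (1 of 7 lost regions, 14.3%, the share over all protein-coding genes), and of 23 intestinal identity transcription factors *Ehf* and *Hnf4g* did (2 of 19 lost regions, 10.5%). The *Ehf* region (chromosome 2, 103271189 to 103272347) had fold enrichments of 4.37 and 4.75 in WT WENR, 5.04, 4.28 and 3.89 in AHR KO WENR and 2.63 and 3.60 in AHR KO d4 ENR, below all WENR values. Of 14 immune, endothelial and mesenchymal markers with a region, *Cd79a* had a member, which is the same region as that at the neighbouring *Arhgef1*.

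Among AP-1 and ETS factor genes, 4 of 25 had a member, all of the ETS family (*Ehf*, *Elf1*, *Ets1* and *Etv6*), and 4 of 20 lost regions were members. The *Ets1* region was at the promoter of an antisense transcript within the gene on chromosome 9 (32711056 to 32712093). Its fold enrichments were 3.18 and 3.60 in WT WENR, 3.39, 3.05 and 3.13 in AHR KO WENR and 3.67 and 3.67 in AHR KO d4 ENR, above all WENR values. Its −log10 q values in AHR KO d4 ENR, 7.52 and 7.34, lay within the WENR range of 5.51 to 19.9. Of 21 genes of the TGF-beta and BMP response, *Smad3*, *Ski* and *Tgfb1* had members (4 of 20 lost regions), and of 25 cell cycle genes *Ccnd2* did (1 of 8 lost regions). The AHR pathway had members at 2 of 14 genes and 2 of 7 lost regions (28.6%), again few regions. At the promoter of *Aldh3a1*, a textbook AHR target, the region (chromosome 11, 61207782 to 61208857) had 5.47 and 5.78 in WT WENR, 5.51, 4.97 and 6.29 in AHR KO WENR and 2.54 and 3.34 in AHR KO d4 ENR, below all WENR values. The other was an intronic region of the *Ugt1a* cluster, assigned to *Ugt1a6a* and 6 overlapping or neighbouring genes.

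Within 15 Mb of *Ahr*, on the chromosome of the targeted gene, lay 12 members (0.753%), against 0.738% of all regions. The strongest, in an intron of *Cdhr3* on chromosome 12 (33118704 to 33119508), had fold enrichments of 2.74 and 2.89 in WT WENR, 5.60, 5.05 and 6.40 in AHR KO WENR and 3.89 and 3.85 in AHR KO d4 ENR. All its AHR KO values, in both media, exceeded those of WT WENR. The *Arl14ep* region on chromosome 2 (106905303 to 106905819) also had all AHR KO values above those of WT WENR, with 3.20 and 3.59 in WT WENR, 4.55, 4.22 and 4.09 in AHR KO WENR and 5.19 and 4.45 in AHR KO d4 ENR.

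Sequence features of the members were compared in windows of 300 bp around the strongest peak of each region. A TEAD match was found in 14.1% of the members (225 of 1594, Wilson interval 12.5% to 15.9%), in 13.2% of the regions called in neither AHR KO d4 ENR library (12.4% to 14.0%), in 8.20% of those called in all 10 libraries and in 10.1% of all regions. The members thus had TEAD matches about as often as the regions lost in WT and not called in AHR KO d4 ENR. The AP-1 letters behaved otherwise. They were found in 18.1% of the members (288 of 1594), in 19.7% of the regions called in 1 AHR KO d4 ENR library and in 26.5% of those called in neither (25.4% to 27.6%), beside 12.4% of the regions called in all 10 libraries and 15.9% of all regions. In intronic and intergenic DNA alone the members had 19.7% and the regions called in neither library 28.0%. Regions are the units of these intervals, which carry no variation between libraries.

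**Figure D5:**
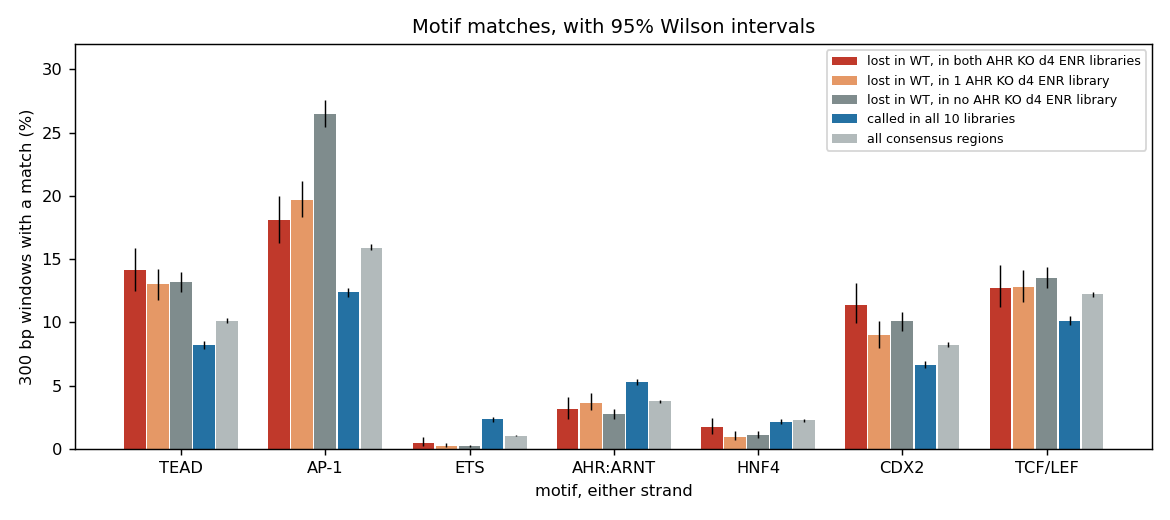
Share of 300 bp windows with a match (%) to each of 7 motifs on either strand, for the members (red), the regions lost in WT that were called in 1 or in no AHR KO d4 ENR library, the regions called in all 10 libraries and all consensus regions, with 95% Wilson intervals. AP-1 stands at 18.1% in the members and 26.5% in the regions called in no AHR KO d4 ENR library, while TEAD stands at 14.1% and 13.2%.

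CDX2 matches were found in 11.4% of the members (9.95% to 13.1%), in 10.1% of the regions called in neither AHR KO d4 ENR library and in 8.22% of all regions. TCF/LEF matches were found in 12.7%, 13.5% and 12.2%. The AHR:ARNT letters TNGCGTG were found in 3.14% of the members (2.39% to 4.11%), in 2.75% of the regions called in neither library and in 3.74% of all regions. HNF4, searched as CAAAGTCCA or CAAAGTTCA, was found in 1.69% (1.17% to 2.45%), 1.11% (0.884% to 1.40%) and 2.25%. In 500 bp windows HNF4 stood at 3.01% (2.28% to 3.97%) in the members and 1.68% (1.40% to 2.03%) in the regions called in neither library. All regions had 3.25% there. ETS, searched as CCGGAAGT, was found in 0.439%, 0.185% and 1.04% of the 300 bp windows. Median GC content was 46.0% in the members and in the regions called in neither library, 51.7% in those called in all 10 and 48.0% in all regions. Matches of TCF/LEF and HNF4 overlapped in 5 members, those of AP-1 with CDX2 and with TCF/LEF in 2 each, and those of CDX2 with TCF/LEF in 1. TEAD and AP-1 matches occurred together in 39 members (2.45%), against 3.58% of the regions called in neither library. At equal list length, AP-1 was found in 24.3% of the 333 regions and in 35.0% of those called in neither library, and TEAD in 16.5% and 14.6%.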

How the data were processed

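Omni-ATAC-seq of 10 libraries was analysed from the peak lists. In the nf-core/atacseq pipeline the authors aligned trimmed reads to GRCm38 with BWA and called broad peaks per library, without pooling, with MACS 2.2.7.1 on fragments, with no control, at q values of 0.1 (broad) and 0.05 (narrow) and a background window of 10000 bp. For each peak the authors deposited the pileup, a coverage signal in fragments that is not scaled for depth, the fold enrichment, a ratio of that pileup to the background nearby, and −log10 p and q values. They served here to describe peaks and to rank them inside 1 list. Fold enrichment was also set side by side across libraries. No correction was made for their different depth and share of coverage in peaks, which limits such comparisons. Fragment numbers were read from the file headers. The study's count test per region was not repeated, as counts were not used here, and an absent peak means only that the caller's threshold was not passed.

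Consensus regions, calls and shares were obtained in Python 3.11.15 (pandas 2.3.3, numpy 2.4.6, scipy 1.17.1 for intervals, matplotlib 3.10.9 for plots). Where a region held several peaks of a library, their lengths were summed and the highest fold enrichment, pileup and −log10 q were taken. Genes came from GENCODE release M21. Groups came from the labels. The members, the gene lists, the motifs and the tests were chosen with earlier results of these data known, so no count over a list is independent support. Named are the 12 strongest members, up to 3 of each list, the 10 strongest in promoters of protein-coding genes, the 3 strongest within 15 Mb of *Ahr* and genes with the most members, apart from an item that is left out here. The sequences shown are a part of those that the rule allows, chosen after they were read. The rule was tested on simulated peak lists, and the motif search on short made-up sequences that each held a motif form. Calls in AHR KO WENR were compared with an exact sign-flip permutation test over libraries, 2-sided. A permutation test of the left-out shares between genotypes was set up but its p is not given, because the regions were chosen under different conditions in each genotype. Alternatives were lists of equal length, a minimum −log10 q of 5, peaks over 50% or more of a region, regions seen in 2 or more libraries, the sex chromosomes left out, promoters extended to 3 kb, other gene flanks and windows, and each library left out in turn.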

Additional observations from a re-analysis of the deposited data

How the results depend on the processing

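With lists of equal length the number of members was 333, the share of lost regions kept 11.6%, the share of members called in all 3 AHR KO WENR libraries 84.1%, the members within 15 Mb of *Ahr* 6 (1.80%, against 0.708% of all regions) and the listed genes with a member 14 (4.35%, against 1.35% of all protein-coding genes), and the ratio of the motif share in members to that in all regions was 1.54 for AP-1, 1.71 for CDX2, 1.27 for TCF/LEF and 1.73 for TEAD, against 1.13, 1.39, 1.04 and 1.40 as reported. By list at equal length, 3 motility genes, 2 adhesion genes, 2 YAP/TEAD targets and 2 mesenchymal, endothelial or immune markers had a member. Lists of Wnt, TGF-beta, AHR pathway, AP-1 and ETS, and intestinal identity genes had 1 each. For the fetal-like, Hippo and EGF receptor lists no gene with a member was recorded at equal length. With a −log10 q of at least 5, 13.8% of lost regions were kept and 92.1% of members were called in all 3 AHR KO WENR libraries. With at least 50% of a region covered there were 3648 members, 19.3% of the lost regions. Promoters of 3 kb left 72.9% of members in introns and intergenic DNA, and 28 members (1.76%, against 1.57% of all regions) lay within 30 Mb of *Ahr*. Leaving out each library in turn gave 1596 to 4144 members, 11.3% to 35.4% of lost regions kept and 86.5% to 92.5% of members called in all AHR KO WENR libraries. The highest count was without WT d4 ENR replicate 3 and the highest share of lost regions without AHR KO d4 ENR replicate 1. The mean left-out share was 24.8 percentage points higher in AHR KO than in WT, and 8.73 points higher at equal length. The regions were chosen under unlike conditions in each genotype, so these differences are a description and not a measure of genotype. Dropping 1 library's share from the means, with that library still in the rule for the others, gave 9.22 (AHR KO d4 ENR replicate 2) to 40.4 points (AHR KO d4 ENR replicate 1), 12.7 for WT d4 ENR replicate 1 and 39.7 for WT d4 ENR replicate 3. The cause of these changes was not tested.

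Replicate numbers are shared between groups, but same-numbered d4 ENR libraries correlated in their deviations from the group means by only 0.0985 and 0.00320 (over 66344 regions), so the numbers were not taken to pair libraries. With the replicate block, over the numbers both genotypes have, the difference in the left-out share was 39.7 points over 2 pairs. This leaves out WT d4 ENR replicate 3 and gives the same value as dropping its share, so it is not a separate check. The depth and the share of coverage in peaks, which was lowest in WT replicate 1, limit what a missing peak in d4 ENR can show.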

Other observations

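CpG dinucleotides averaged 4.78 per 300 bp window in the members, 4.68 in the regions called in neither AHR KO d4 ENR library and 12.7 in those called in all 10 libraries. More than 1 AP-1 match was found in 2.32% of the members and in 3.64% of the regions called in neither library, and more than 1 CDX2 match in 1.32% and 0.757%. Windows that were mostly repeat-masked made up 7.90% of the members and 7.84% of all regions.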
